A study of Rattus norvegicus with 60 samples.

Results

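The mRNA of hippocampal CA1 tissue taken 24 h after place training was compared with that of naive tissue. The comparison used 14 of the 60 samples of the series, 5 place 24 h libraries and 9 naive libraries, which are all polyA+ RNA libraries that the labels give for these groups. All came from Sprague-Dawley rats aged 90 to 120 d with no genotype or agent named, and RNA with an RIN above 8 was made into directional libraries. The study took contextual threat recognition training as its task and read CA1 mRNA and DNA methylation 1 h and 24 h later. The labels do not describe the experience of place animals, give no time for naive libraries and name no animals, so a p-value here covers only spread among libraries, part of which may be technical. Of 22865 genes in the deposited table, the 13153 that reached 1 FPKM (fragments per kilobase of transcript, scaled to the mapped fragments of each library) in at least 5 of the 34 RNA libraries were tested.

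Area CA1 is the output field of the hippocampal circuit, and its pyramidal cells include place cells, which fire at particular positions in an environment. New experience in these cells is followed within minutes to hours by immediate early transcription factors and then by effector genes that act at synapses. Levels a day later are usually studied for lasting programs such as chromatin regulation, RNA processing and energy metabolism.

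The naive libraries fell into 2 sets, 1 to 4 and 5 to 9, which are the blocks in which the table lists them and not a labelled batch. In limma, 2501 genes (19% of those tested) differed between the sets, 1132 higher (8.61%) and 1369 lower (10.4%) in 5 to 9, so the main counts and lists are also given against each set. Relative depth, read from steps of low FPKM values, was 0.898 to 1.11 of the median library in place 24 h libraries, 0.936 to 1.03 in naive 1 to 4 and 0.997 to 1.22 in naive 5 to 9. The table gives no read totals. Summed FPKM over all genes was 267370 to 275423 in place 24 h and 256901 to 267268 in naive libraries, without overlap. The 15 tested pyramidal cell markers of CA1 summed to 877 to 1488 FPKM in place 24 h and 796 to 1472 in naive libraries. The sums were 76.6 to 123 and 70.4 to 148 for 13 dentate granule cell markers. For 14 markers of CA2 and CA3 they were 415 to 510 and 358 to 476. Sums over different genes do not rank regions, so they cannot settle the CA1 label. In bulk tissue, fewer cells of a type and less RNA per cell cannot be told apart.

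Of the 664 genes called after place training (5.05% of those tested), 196 rose (1.49%) and 468 fell (3.56%) relative to the 9 naive libraries, at a Benjamini-Hochberg adjusted p under 0.05 in a limma fit of log2(FPKM + 1) over all 34 RNA libraries. Most changes were small. The median difference was 0.19 log2 among the higher genes and -0.30 among the lower genes, against 0.02 over all genes tested. Only 2 higher genes, Tnnt2 and Pcdhb8, differed by at least 0.5 log2, compared with 67 lower genes, and 3 lower genes (Col5a1, Col6a1 and Leng8) fell by at least 1. Every place 24 h library lay below every naive library in 139 of the 468 lower genes, against 1.18% of all genes tested, and above in 16 of the 196 higher genes, against 0.198%. Calls and overlap were read from the same libraries, so the larger shares among called genes are no separate support. The lists described below held a small part of the called genes. Splicing regulators, collagens, histone methylation enzymes and histone deacetylases and acetyltransferases held 14, 12, 7 and 3 of the 468 lower genes, and the proteasome, the mitochondrial ribosome and the respiratory chain held 7, 6 and 7 of the 196 higher ones.

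The number of genes called depended on the controls and on the fit. With naive 1 to 4 as the controls, 1571 genes rose (11.9%) and 1549 fell (11.8%). With naive 5 to 9 as the controls, 2 rose (0.0152%) and 9 fell (0.0684%). All 664 called genes kept their sign against both sets. The genes were chosen with these same libraries, so the shared sign is no separate support. The median of the lower genes was -0.47 log2 against naive 1 to 4 and -0.17 against 5 to 9, and that of the higher genes 0.25 and 0.13. Of the 468 lower genes 367 were also called between the naive sets, all lower in 5 to 9, against 10.4% of all genes tested. Of the 196 higher genes 72 were, 71 of them higher in 5 to 9, against 8.61% of all genes tested. The same naive libraries enter both comparisons, so these counts are not independent. Against naive 1 to 4 alone 465 of the lower and 188 of the higher genes were called, and against 5 to 9 alone 9 and 1. With only place 24 h and naive libraries in the fit, as 2 groups with 12 residual degrees of freedom in place of 29, limma called 0 genes, with a lowest adjusted p of 0.0810 and 2357 genes at an unadjusted p under 0.05, against 2878 in the fit of all libraries. With the same libraries and the naive sets as separate groups, an alternative chosen after seeing the data, 453 were higher and 785 lower. Leaving out 1 library gave 235 to 1121 genes. The count moved by over 1.5 times without place 24 h library 2 (327), 3 (235) or 5 (263), and without naive library 2 (392), 3 (307), 4 (318) or 6 (1121). Higher genes made up 29.5% of those called, and 18.3% after median-ratio scaling, 14.5% after quantile normalization and 39.8% with a filter of 5 FPKM.

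**Figure D1:**
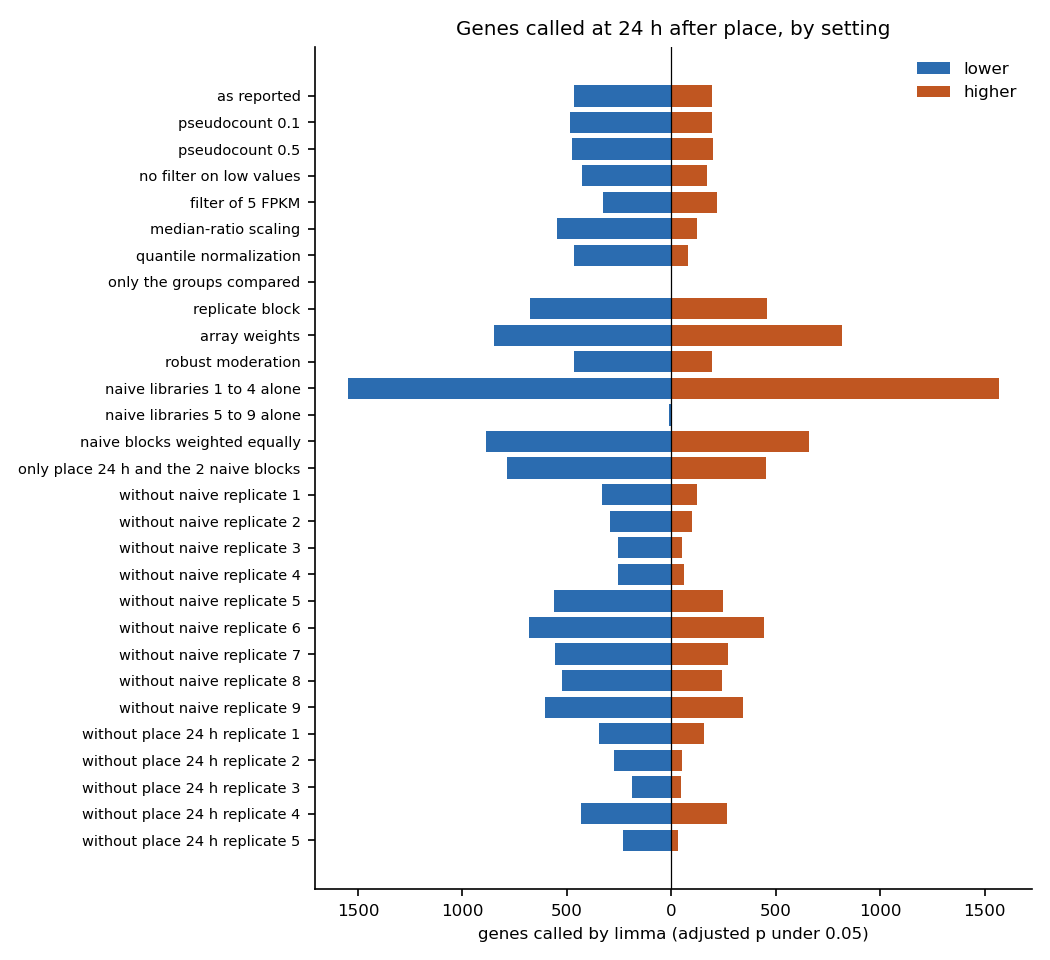
Genes called by limma at an adjusted p under 0.05 in place 24 h against naive CA1 under each setting, lower genes drawn to the left and higher genes to the right of 0. The 196 higher and 468 lower genes of the reported fit became 1571 and 1549 against naive 1 to 4 and 2 and 9 against naive 5 to 9, and 0 with only the 2 groups in the fit.

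**Figure D2:**
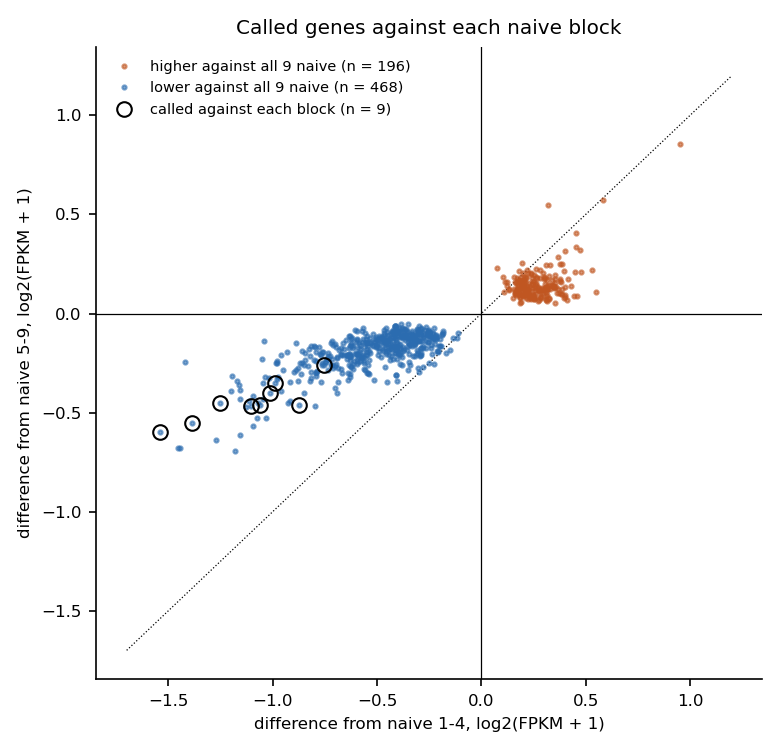
Each point is 1 of the 664 called genes, with its difference in log2(FPKM + 1) from naive 1 to 4 on the x axis and from naive 5 to 9 on the y axis; both share the 5 place 24 h libraries, and the dotted line marks equal values. All points, which were chosen with these same libraries, keep their sign on both axes. Most lower genes sit nearer 0 against naive 5 to 9, and circles mark the 9 genes called against each set.

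The 9 genes that fell against each naive set were Leng8, Snhg11, Clasrp, Srrm2, Akap8l, Celsr3, Col19a1, Idua and Atxn2l, and no gene rose against both. All 9 were also called in each of the 14 fits that left out 1 library. Those fits share the libraries that chose the genes, so they are no separate support. Leng8 (chromosome 1, 74814349 to 74826049 in rat rn5), a nuclear protein of the leukocyte receptor cluster, stood at 11.0, 11.8, 10.8, 10.6 and 9.54 FPKM in place 24 h libraries 1 to 5, and at 13.9, 20.2 and 37.9 FPKM in the lowest, median and highest naive library. The groups did not overlap, and the naive sets did not overlap either, with 28.8 to 37.9 FPKM in libraries 1 to 4 and 13.9 to 20.2 in 5 to 9. Leng8 fell by 1.02 ± 0.16 log2 (SE, limma adjusted p = 0.00134), by 1.54 against naive 1 to 4 and by 0.60 against 5 to 9 (adjusted p = 0.0115). Snhg11 (chromosome 3, 160736978 to 160743135), a host transcript of small nucleolar RNAs and 1 of 2 tested among 18 listed noncoding RNAs, stood at 33.1, 28.5, 33.1, 33.3 and 30.3 FPKM in place 24 h libraries 1 to 5 and at 37.3, 54.6 and 97.7 FPKM in the lowest, median and highest naive library. All place 24 h libraries were below all naive ones, and the difference was -0.92 ± 0.15 log2 (adjusted p = 0.00173), with -1.38 against naive 1 to 4 and -0.55 against 5 to 9 (adjusted p = 0.0339). Idua (chromosome 14, 2037952 to 2052303), the lysosomal alpha-L-iduronidase that degrades heparan and dermatan sulfate, stood at 5.18, 5.004, 5.42, 6.14 and 5.15 FPKM against a naive range of 6.67 to 17.3 with a median of 9.32. Idua fell by 0.81 ± 0.14 log2 (adjusted p = 0.00254), and by 0.45 against naive 5 to 9 (adjusted p = 0.0483).

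The stretch of 250 bases before the start of these 3 genes is shown because the methylation libraries below were read around gene starts. The sequences are from RefSeq on build GRCr8, which is not the build of the study's positions, and run 5′ to 3′ on the gene's strand with each CpG in capitals. They lie at chr1:79124739-79124988 (minus strand) for Leng8, chr3:167451022-167451271 (plus strand) for Snhg11 and chr14:1190929-1191178 (minus strand) for Idua.
Leng8: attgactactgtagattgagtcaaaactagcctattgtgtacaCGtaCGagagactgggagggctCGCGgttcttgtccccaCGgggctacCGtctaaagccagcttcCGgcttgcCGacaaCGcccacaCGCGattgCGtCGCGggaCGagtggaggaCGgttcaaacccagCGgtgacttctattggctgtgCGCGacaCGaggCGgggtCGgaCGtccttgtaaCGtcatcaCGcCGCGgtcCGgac
Snhg11: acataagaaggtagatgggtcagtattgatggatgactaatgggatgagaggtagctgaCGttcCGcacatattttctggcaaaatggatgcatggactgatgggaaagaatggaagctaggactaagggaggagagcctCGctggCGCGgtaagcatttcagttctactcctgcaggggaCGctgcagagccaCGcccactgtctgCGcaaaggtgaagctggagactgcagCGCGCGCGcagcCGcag
Idua: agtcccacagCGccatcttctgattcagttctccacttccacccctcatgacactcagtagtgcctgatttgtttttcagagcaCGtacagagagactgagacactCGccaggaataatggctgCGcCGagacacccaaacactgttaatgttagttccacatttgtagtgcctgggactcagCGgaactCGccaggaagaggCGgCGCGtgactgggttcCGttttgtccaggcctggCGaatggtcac
The Leng8 stretch held 28 CpGs, that of Snhg11 13 and that of Idua 12.

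The other 6 genes of this group had the same order of means, naive 1 to 4 above naive 5 to 9 above place 24 h. Akap8l, an A-kinase anchoring protein relative in the nucleus, was at 18.6 to 21.9 FPKM in place 24 h libraries, 24.8 to 33.4 in naive 5 to 9 and 40.8 to 48.3 in naive 1 to 4, a difference of -0.73 ± 0.12 log2 (SE, adjusted p = 0.00134). Celsr3, a cadherin with a role in axon guidance, was at 2.53 to 2.87, 3.55 to 4.38 and 5.10 to 7.53 FPKM in those 3 sets of libraries, a difference of -0.67 ± 0.11. Neither gene overlapped between any pair of the 3 sets. Col19a1, a non-fibrillar collagen that interneurons can make, was at 0.598 to 0.721 FPKM in place 24 h and 1.104 to 2.60 in naive libraries, and its naive sets overlapped (1.104 to 1.597 and 1.39 to 2.60). Atxn2l, an RNA-binding relative of ataxin-2, was at 16.3 to 18.1 FPKM against 19.3 to 32.8, and fell by 0.48 ± 0.09 log2, the smallest change of the 9. Clasrp and Srrm2 are described with the splicing regulators.

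**Figure D3:**
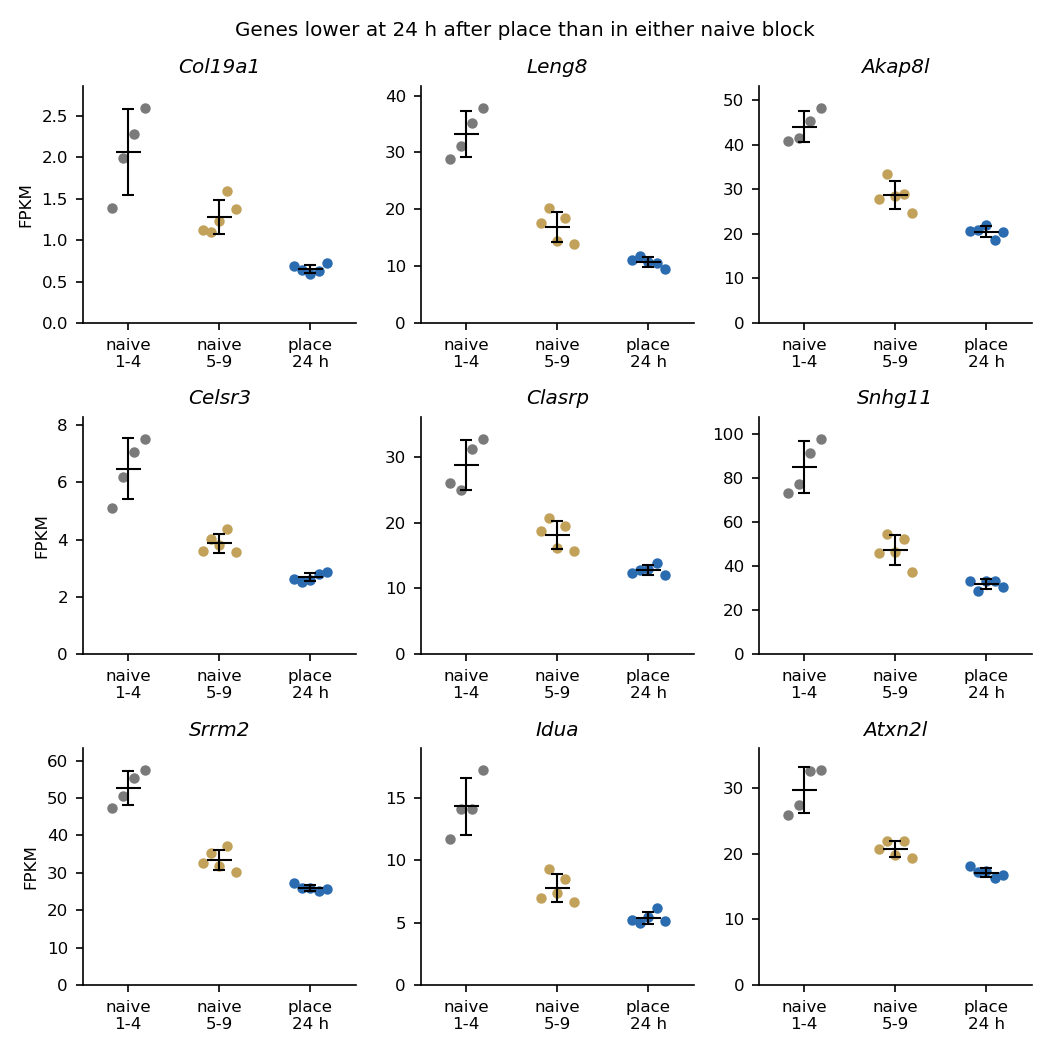
FPKM in each library (points) for the 9 genes that fell against each naive set, with the mean and SD of naive 1 to 4 (n = 4), naive 5 to 9 (n = 5) and place 24 h (n = 5) as bars. In each panel all place 24 h libraries lie below all 9 naive ones, as for Leng8 with 9.54 to 11.8 against 13.9 to 37.9 FPKM.

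Of 41 regulators of splicing tested, 14 fell and 0 rose, against 3.56% and 1.49% of all genes tested. This list, which holds Leng8, and the lists below were written with earlier results of these data known. The shares set beside them are therefore descriptions and not a test. Their median difference was -0.14 log2 over the whole list, against 0.02 over all genes tested. Srrm2, a large SR-related protein of nuclear speckles, stood at 27.2, 26.0, 25.9, 25.1 and 25.6 FPKM in place 24 h libraries 1 to 5 and at 30.4, 37.1 and 57.6 in the lowest, median and highest naive library, without overlap, and fell by 0.63 ± 0.11 log2 (adjusted p = 0.00178). Clasrp, an SR-like protein that binds CLK4, stood at 12.4, 12.8, 12.9, 13.9 and 12.1 FPKM against 15.7, 20.7 and 32.9, and fell by 0.75 ± 0.12 (adjusted p = 0.00134). Luc7l3, a relative of a U1 snRNP factor, fell by 0.41 ± 0.07 to 18.5 to 21.2 FPKM from 22.4 to 34.1. The kinases that phosphorylate SR proteins fell in 3 cases, Clk4 by 0.53, Clk1 by 0.52 and Clk2 by 0.29 log2, and so did Snrnp70, the U1 snRNP core protein (by 0.47), Pnisr (by 0.46), the helicase Ddx17 (by 0.31), Srrm1 (by 0.20), Srsf11 (by 0.20), Srsf5 (by 0.17) and Luc7l (by 0.16). The list held 7 positive differences, the highest of them 0.14. Summed over the list, expression was 1181 to 1227 FPKM in place 24 h, 1223 to 1333 in naive 5 to 9 and 1373 to 1509 in naive 1 to 4. In the comparison with naive 1 to 4 alone 24 members fell and 4 rose (11.8% and 11.9% of all genes), and against 5 to 9 alone 3 fell (Leng8, Clasrp and Srrm2). The counts were 16 lower after median-ratio scaling and 17 after quantile normalization, with 0 higher in both.

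Enzymes that write and erase histone marks were lower where they passed the test. Among 31 histone methyltransferases and demethylases 7 fell and 0 rose, against 3.56% and 1.49% of all genes tested, with a median of -0.07 log2. Wbp7, a H3K4 methyltransferase of the MLL family, was at 4.20, 4.16, 4.17, 4.12 and 4.22 FPKM in place 24 h libraries 1 to 5 and at 4.58, 5.42 and 6.58 in the lowest, median and highest naive library. Its groups did not overlap, and it fell by 0.30 ± 0.06 log2 (adjusted p = 0.00290). The related Mll1 and a gene listed as Mll2 each fell by 0.31, and Dot1l, the H3K79 methyltransferase, fell by 0.46 ± 0.10. RGD1311624, which RefSeq names Setd1a, fell by 0.21, the demethylase Kdm4b by 0.22 and the H3K9 methyltransferase Setdb1 by 0.22. None of the 31 was called against naive 5 to 9 alone (median -0.05), whereas 12 fell against 1 to 4 (11.8% of all genes). Of 21 histone deacetylases and acetyltransferases, Hdac10 (-0.55 ± 0.12), Hdac7 (-0.34) and Kat2a (-0.17) fell and 0 rose. Against naive 1 to 4 alone 7 of the 21 fell (11.8% of all genes), and against 5 to 9 alone 0 were called (median -0.03).

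The DNA methylation machinery had 3 members that fell and 1 that rose among 20 tested, against 3.56% and 1.49% of all genes. With naive 1 to 4 alone as controls 5 fell and 3 rose (11.8% and 11.9% of all genes), and against 5 to 9 alone 0 were called. Dnmt3a, a de novo DNA methyltransferase with a known part in hippocampal memory, was at 3.20, 3.31, 2.76, 3.16 and 2.95 FPKM in place 24 h libraries 1 to 5 and at 3.24, 3.85 and 4.37 in the lowest, median and highest naive library. Library 2 of place 24 h reached above the lowest naive library, and the others stood below all naive ones. Dnmt3a fell by 0.23 ± 0.05 log2 (adjusted p = 0.00622) and was called in 14 of 14 fits that left out a library, with -0.29 against naive 1 to 4 and -0.18 against 5 to 9 (adjusted p = 0.128). Tet2, which oxidises 5-methylcytosine, fell by 0.19 ± 0.06 (adjusted p = 0.0456), and Ogt, the O-GlcNAc transferase that partners TET proteins, by 0.16 ± 0.04 (adjusted p = 0.0246), and these calls held in 6 and 9 of the 14 fits. Apex1, the abasic site endonuclease of base excision repair, rose by 0.17 ± 0.05 (adjusted p = 0.0478), a call that held in 3 of 14 fits and was lost after both other scalings.

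Of 31 collagens and basement membrane genes 12 fell and 0 rose, against 3.56% and 1.49% of all genes tested, with a median of -0.12 log2. Col5a1, a fibrillar collagen chain (chromosome 3, 11789103 to 11935751), stood at 0.933, 1.21, 1.32, 1.17 and 1.404 FPKM in place 24 h libraries 1 to 5 and at 1.4996, 4.17 and 6.61 in the lowest, median and highest naive library. The groups did not overlap, and Col5a1 fell by 1.02 ± 0.17 log2 (adjusted p = 0.00189), by 1.46 against naive 1 to 4 and, short of the threshold, differed by -0.68 from 5 to 9 (adjusted p = 0.0760). Col6a1, a chain of the microfibrillar collagen VI, stood at 1.77, 2.40, 1.78, 2.65 and 1.64 FPKM against a naive range of 2.11 to 15.05, which overlapped, with naive library 4 highest. It fell by 1.02 ± 0.23 (adjusted p = 0.0105) and its partner chain Col6a2 by 0.60 ± 0.18. Col27a1 fell by 0.76, Col23a1 by 0.92, Col16a1 by 0.60, Col11a2 by 0.56, Col11a1 by 0.45, and the heparan sulfate proteoglycan agrin (Agrn) by 0.55. The chains of the vascular basement membrane, Col4a1 and Col4a2, fell by 0.28 and 0.46. The calls of Col6a2, Col4a2 and Col23a1 held in 5, 6 and 7 of the 14 fits that left out a library. Against naive 5 to 9 alone 1 of the 31 was called, Col19a1, and against 1 to 4 alone 16 fell (11.8% of all genes).

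Markers of endothelial and mural cells, which make much of the brain's collagen IV, had lower medians beside these genes and 0 calls against the 9 naive libraries. Of 22 tested 21 were below 0, and the median was -0.13 log2, or -0.23 against naive 1 to 4 and -0.04 against 5 to 9. When naive 1 to 4 were the only controls 10 fell (11.8% of all genes), with the sets weighted equally 4 fell, and against 5 to 9 alone 0 were called. Their summed level was 182 to 223 FPKM in place 24 h, 212 to 252 in naive 1 to 4 and 178 to 219 in naive 5 to 9. The 13 markers of meninges and fibroblasts had a median of 0.00 and 0 calls, with sums of 163 to 236 FPKM in place 24 h and 169 to 222 in naive libraries. The part of these cells in the lower collagen mRNA was not tested.

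Other lower genes came from several functions. Kcnt1, a sodium-activated potassium channel, stood at 4.44, 3.93, 3.82, 5.38 and 4.89 FPKM in place 24 h libraries 1 to 5 against 5.78, 6.98 and 11.7 in the lowest, median and highest naive library, without overlap, and fell by 0.65 ± 0.13 log2 (adjusted p = 0.00386). Kcnk4, a mechanosensitive leak potassium channel, fell by 0.85 ± 0.21 with overlap (3.76 to 7.77 against 5.203 to 19.7 FPKM). The other 47 of 49 potassium channels tested were not called, and the list's median was -0.03. Lower members made up 4.08% of this list, near the 3.56% over all genes tested. Fcho1, an initiator of clathrin-mediated endocytosis, was at 11.8 to 12.7 FPKM against 15.6 to 35.0 and fell by 0.75 ± 0.14, and Rtel1, a helicase that guards telomeres, was at 1.44 to 2.998 against 3.21 to 8.33 and fell by 0.80 ± 0.19, both without overlap. Mapk11, the beta isoform of p38 kinase, fell by 0.77 ± 0.18, with place 24 h library 4 at 9.43 FPKM and the other 4 at 6.50 to 7.23. Trank1 was at 6.61 to 8.99 FPKM against 10.2 to 22.7 and fell by 0.75 ± 0.16. Tmem145 (-0.91), Coro6 (-0.75), a coronin, and RGD1566251 (-0.77) also fell, the last with 0.645 to 1.204 FPKM in place 24 h, 0.886 to 1.90 in naive 5 to 9 and 3.15 to 6.21 in naive 1 to 4. The differences from naive 1 to 4 and from 5 to 9 were -0.92 and -0.44 for Kcnt1, -1.16 and -0.43 for Fcho1, -1.09 and -0.57 for Rtel1, -1.08 and -0.53 for Mapk11 and -1.20 and -0.39 for Trank1, none of them called against 5 to 9.

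A few other lists had 1 or 2 lower members. These were 4.35% to 7.14% of the tested members of each list, near the 3.56% of all genes tested that fell. Slc1a2, the main astrocytic glutamate transporter, was at 206, 228, 237, 263 and 214 FPKM in place 24 h libraries 1 to 5 and 257, 277 and 403 in the lowest, median and highest naive library, a fall of 0.37 ± 0.10 log2 (adjusted p = 0.0337) that was called in 6 of 14 fits. The other 19 astrocyte markers were not called, and the list's median was -0.01. Among 18 circadian clock genes, 3 of which were above 0, only Per3 fell, by 0.35 ± 0.10. Irf3, a transcription factor of the interferon response, fell by 0.48 ± 0.12 among 23 cytokine and innate immune genes, and the lysosomal mannosidase Man2b1 (-0.36 ± 0.10) fell beside Idua among 39 lysosomal genes, whose median was 0.04. Cdh24 fell by 0.54 among 14 markers of CA2 and CA3, whose median was 0.17. The differences from naive 1 to 4 and from 5 to 9 were -0.57 and -0.21 for Slc1a2, -0.60 and -0.15 for Per3, -0.79 and -0.24 for Irf3 and -0.88 and -0.27 for Cdh24, and none of the 4 was called against 5 to 9.

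Among the higher genes the largest differences were in mRNAs of low level. Tnnt2, cardiac troponin T, stood at 1.07, 1.75, 3.83, 0.0662 and 2.57 FPKM in place 24 h libraries 1 to 5 and at 0.106, 0.156 and 1.95 in the lowest, median and highest naive library. Place 24 h library 4 lay below every naive library and the groups overlapped. Tnnt2 rose by 0.90 ± 0.27 log2 (adjusted p = 0.0425), a call that held in 4 of 14 fits that left out a library. Mmp9, a secreted protease that remodels the perisynaptic matrix, stood at 1.27, 1.54, 1.54, 1.27 and 1.69 FPKM against 0.537, 0.811 and 1.23. The Mmp9 groups did not overlap, and its rise of 0.43 ± 0.10 (adjusted p = 0.0150) was nearly equal against naive 1 to 4 (0.45) and 5 to 9 (0.41, adjusted p = 0.198). Pcdhb8, a clustered protocadherin, stood at 2.35, 1.43, 2.20, 2.09 and 1.68 FPKM against 0.443, 0.759 and 1.81, with overlap, and rose by 0.58 ± 0.15 (adjusted p = 0.0242), with 0.59 and 0.57 against the naive sets. The other 28 protocadherins tested were not called, while 1.49% of all genes tested rose. Reads from these similar genes may be shared.

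Nt5e, the ectonucleotidase that makes adenosine outside the cell, was at 4.75, 4.54, 3.85, 4.21 and 4.17 FPKM in place 24 h libraries 1 to 5 and 1.81, 3.41 and 3.95 in the lowest, median and highest naive library. Only library 3 fell within the naive range, and Nt5e rose by 0.35 ± 0.09 log2 (adjusted p = 0.0243). Ache, acetylcholinesterase, rose by 0.33 ± 0.09, from 9.52 to 19.5 FPKM in naive libraries to 15.4 to 20.9. Rhbdl3 (0.39 ± 0.11), a rhomboid family member, Emb (0.36 ± 0.11), the membrane protein embigin, and Fzd1 (0.31 ± 0.08), a Wnt receptor, also rose. Pmel (0.32), Rpl35a (0.32), Endod1 (0.31), Tceb1 (0.31), RGD1307704 (0.30), l7Rn6 (0.28) and Sec11c (0.28) complete the 15 largest among genes with a symbol. Rpl35a was read at 6.19 ± 0.79 FPKM (SD, n = 5) from a locus on chromosome 5 (168581346 to 168581793), and reads from near-identical copies of ribosomal protein genes may be split among them. None of these genes was called against naive 5 to 9 alone.

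**Figure D4:**
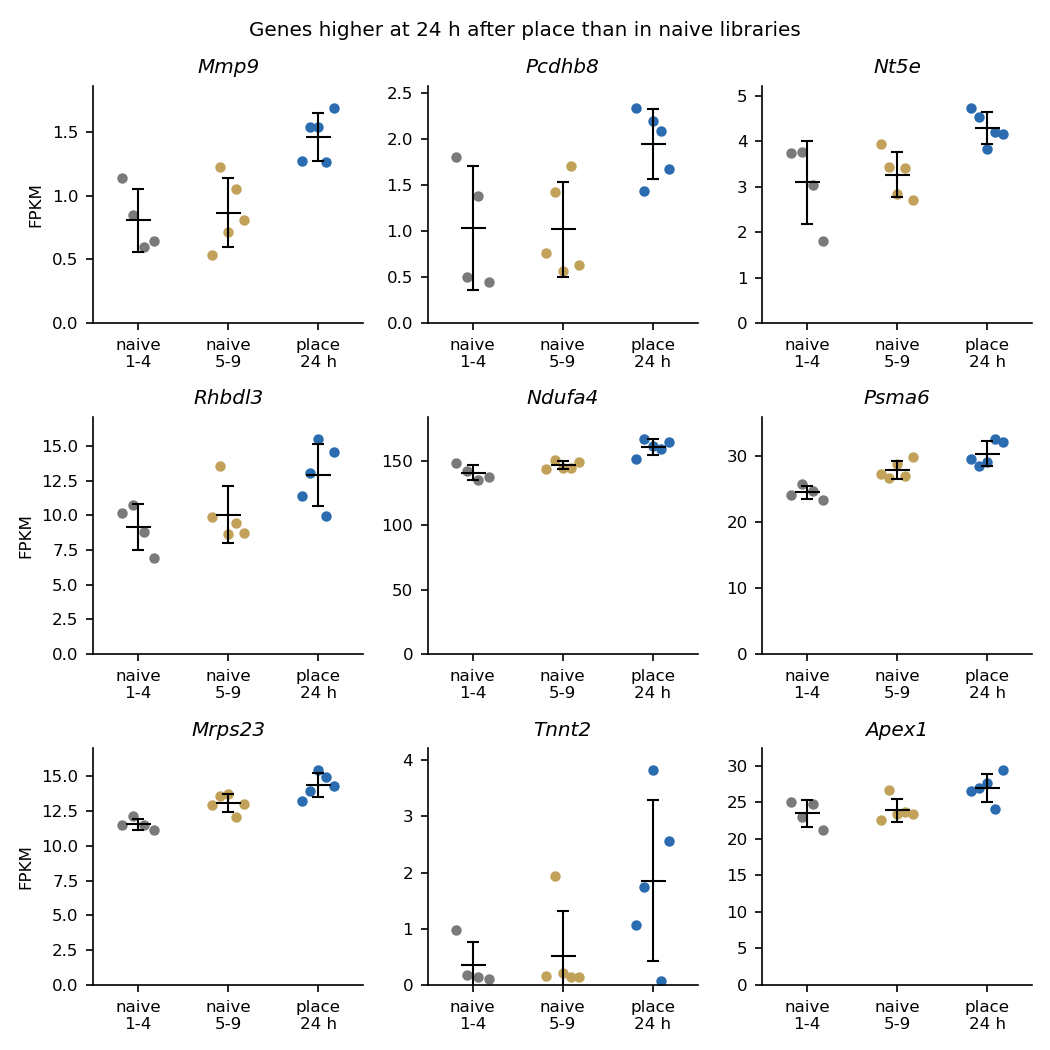
FPKM in each library (points) for 9 genes higher at 24 h after place training, with mean and SD of naive 1 to 4 (n = 4), naive 5 to 9 (n = 5) and place 24 h (n = 5). Mmp9 and Ndufa4 do not overlap with naive libraries, and Tnnt2 spreads from 0.0662 to 3.83 FPKM within place 24 h.

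Calls in the proteasome and mitochondrial lists were few and in the higher direction. Of 40 proteasome subunits tested 7 rose and 0 fell, 38 were above 0 (7324 of 13153 over all genes tested), and the median was 0.09 log2, against called shares of 1.49% higher and 3.56% lower and a median of 0.02 over all genes. Psma6, an alpha subunit of the 20S core, stood at 29.5, 28.5, 29.0, 32.6 and 32.003 FPKM in place 24 h libraries 1 to 5 and at 23.3, 26.6 and 29.8 in the lowest, median and highest naive library, and rose by 0.20 ± 0.05 (adjusted p = 0.0151). The groups overlapped, since 3 place 24 h libraries lay within the range of naive 5 to 9. Psmb3 rose by 0.24 ± 0.06, Psmb7 by 0.19, Psma2 and Psmb4 by 0.16 each, Psmb5 by 0.14 and Psmb1 by 0.13, all of them subunits of the core and not of the regulatory particle. The summed proteasome level was 1563 to 1655 FPKM in place 24 h, 1458 to 1619 in naive 5 to 9 and 1385 to 1477 in naive 1 to 4. Against naive 1 to 4 alone 21 subunits rose (11.9% of all genes), and against 5 to 9 alone 0. After median-ratio scaling 3 of the 40 rose (median 0.08) and after quantile normalization 1 (median 0.04).

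In the list for respiratory complex I, which oxidises NADH, 4 of 37 members rose and 0 fell, with 34 above 0 and a median of 0.07 log2. That list counts Ndufa4 as a member. Ndufa4, a small subunit that is now assigned to cytochrome oxidase, stood at 151, 167, 161, 159 and 165 FPKM in place 24 h libraries 1 to 5 and at 135, 144 and 151 in the lowest, median and highest naive library, without overlap. It rose by 0.16 ± 0.03 (adjusted p = 0.00652) and was called in 14 of 14 fits, with 0.19 against naive 1 to 4 and 0.13 against 5 to 9 (adjusted p = 0.147), and was not called after quantile normalization. Ndufa1 and Ndufa5 rose by 0.23 each and Ndufa13 by 0.18. In the list for complexes II to V 3 of 40 genes rose and 0 fell, with a median of 0.08. Those higher were Cycs (cytochrome c, by 0.22, listed as CYCS and subject to reads from copies), Cox7c (by 0.19) and Cox5b (by 0.16). Of 75 mitochondrial ribosomal proteins 6 rose and 0 fell, against 1.49% and 3.56% of all genes, 66 were above 0, and the median was 0.06 against 0.02. Against naive 1 to 4 alone 15 members of complex I, 15 of complexes II to V and 14 of the mitochondrial ribosome rose, with 1, 1 and 0 that fell. Over all genes 11.9% rose and 11.8% fell in that comparison. Against 5 to 9 alone 0 members of these 3 lists were called. Mrps23 was at 13.2, 13.96, 15.5, 14.98 and 14.3 FPKM against 11.2, 12.1 and 13.7 in the lowest, median and highest naive library, and rose by 0.20 ± 0.05 (adjusted p = 0.0117). Mrps18c, Mrpl50, Mrps33, Mrps22 and Mrpl43 rose by 0.16 to 0.22. Quantile normalization called 0 of 37 in complex I and 0 of 40 in complexes II to V, with medians of 0.02 and 0.01, and 2 of 75 mitochondrial ribosomal proteins. Cytosolic ribosomal proteins had 1 of 75 called (Rpl35a) and a median of 0.04, which was -0.03 after quantile normalization, -0.06 against naive 1 to 4 and 0.12 against 5 to 9.

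Protein folding genes showed the same dependence on the naive set. Of 28 heat shock chaperones, 26 were above 0 with a median of 0.13 log2, and Hspa13 (0.22 ± 0.06) and Dnaja2 (0.17 ± 0.05) rose while Hsf1, the transcription factor that induces them, fell by 0.32 ± 0.08. Over all genes tested 1.49% rose and 3.56% fell. Hsf1 was at 5.57 to 6.44 FPKM in place 24 h, 5.36 to 7.56 in naive 5 to 9 and 8.57 to 10.2 in naive 1 to 4. Against naive 1 to 4 alone 19 of the 28 rose (11.9% of all genes), and against 5 to 9 alone 0 were called (median 0.04). The summed chaperone level was 1330 to 1395 FPKM in place 24 h, 1285 to 1359 in naive 5 to 9 and 1050 to 1187 in naive 1 to 4. Of 23 genes of folding and stress in the endoplasmic reticulum 0 were called (median 0.08), whereas 10 rose and 1 fell against naive 1 to 4 alone, 6 rose with the sets weighted equally and 0 were called against 5 to 9 alone. After median-ratio scaling and after quantile normalization, no chaperone was called higher and Hsf1 alone was called lower.

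**Figure D5:**
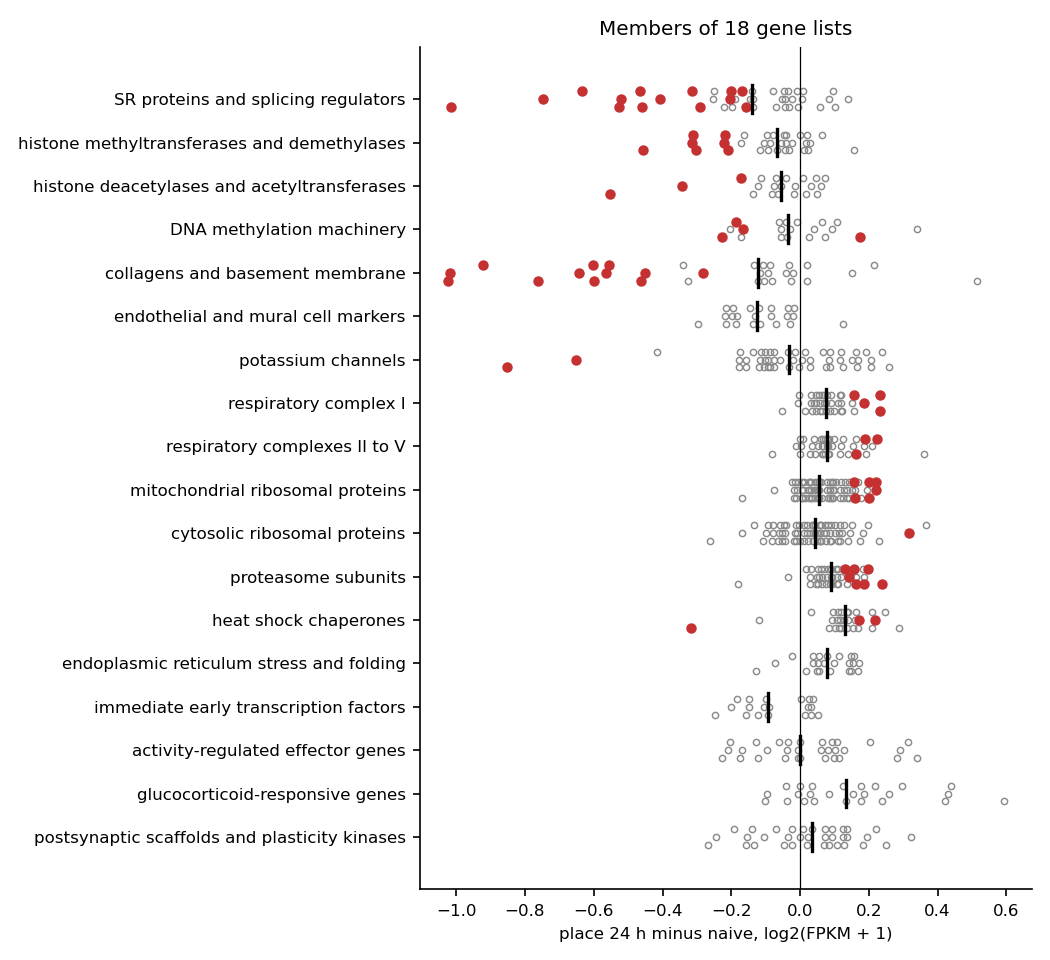
Difference between place 24 h and naive libraries in log2(FPKM + 1) for each tested member of 18 gene lists (red points called by limma at an adjusted p under 0.05, other points not called), with the list's median as a bar. Called members lie to the left among splicing regulators (14 of 41) and collagens (12 of 31) and to the right among proteasome subunits (7 of 40).

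The transcripts best known from experience in CA1 were not called against the 9 naive libraries a day later. Of 19 immediate early transcription factors 0 passed the test, the differences ran from -0.25 (Klf4) to 0.05 (Crem), and the median was -0.09 log2, with the opposite sign against naive 1 to 4 (0.09) and the same against 5 to 9 (-0.19). Of 31 activity-regulated effectors 0 passed, with a median of 0.00. Gadd45b, a stress-inducible gene with a part in DNA demethylation, was closest, at 7.23, 8.24, 8.74, 7.83 and 9.21 FPKM in place 24 h libraries 1 to 5 against 3.99, 6.69 and 8.78 in the lowest, median and highest naive library (0.34 ± 0.11, adjusted p = 0.0630). Against naive 1 to 4 alone 2 immediate early factors fell and 4 effectors rose, which is near the shares over all genes, of which 11.8% fell and 11.9% rose. With the sets weighted equally 2 effectors rose, and 0 of either list were called against 5 to 9 alone. Postsynaptic scaffolds and plasticity kinases (0 of 35), NMDA, AMPA and kainate receptors (0 of 17), GABA-A receptors (0 of 14), sodium and calcium channels (0 of 29), synaptic vesicle release genes (0 of 34), neuropeptide precursors (0 of 30) and cholesterol synthesis genes (0 of 24) had no called member, with medians from -0.06 to 0.11. Against naive 1 to 4 alone, where 11.9% of all genes rose and 11.8% fell, these lists had some calls. They were, for example, 6 higher and 4 lower among vesicle release genes, 4 and 1 among postsynaptic genes, 3 and 2 among the glutamate receptors and 2 and 4 among sodium and calcium channels. Against 5 to 9 alone these lists had 0. A missed threshold in these lists does not show that levels were equal.

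Glucocorticoid-responsive genes lay above 0 in 20 of 25 cases, with 0 called and a median of 0.13 log2, and 0 were called against either naive set alone. Sgk1, the serum- and glucocorticoid-regulated kinase, stood at 20.8, 40.9, 32.1, 28.5 and 27.5 FPKM in place 24 h libraries 1 to 5 and at 14.4, 17.5 and 25.3 in the lowest, median and highest naive library. Only library 1 lay within the naive range, and the difference was 0.59 ± 0.18 (adjusted p = 0.05005, just above the threshold), with 0.57 and 0.61 against the naive sets. Sgk1 passed the threshold with pseudocounts of 0.1 and 0.5, with a filter of 5 FPKM, and with the naive sets weighted equally in both fits that did so. Pdk4, which inhibits pyruvate dehydrogenase, was at 1.83 to 3.43 FPKM against 1.14 to 1.97 (0.44 ± 0.14, adjusted p = 0.0623), and Cdo1, cysteine dioxygenase, differed by 0.43 ± 0.15 (adjusted p = 0.0792).

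Markers of the other cells that a CA1 dissection can hold had few calls. None of the 15 tested CA1 pyramidal cell markers (median 0.17 log2), 13 dentate granule cell markers (0.08), 26 interneuron markers (0.09), 21 microglia markers (0.12), 13 oligodendrocyte precursor markers (0.10), 11 thalamus markers (0.08) or 15 striatum and amygdala markers (-0.07) was called. The 22 oligodendrocyte and myelin markers were all above 0, with a median of 0.16, 0 calls and summed levels of 2662 to 5271 FPKM in place 24 h and 3021 to 4577 in naive libraries. Choroid plexus markers (6 tested) summed to 5.28 to 176 FPKM in place 24 h and 6.52 to 277 in naive libraries, with a median of 0.32. Blood cell markers (6 tested) summed to 204 to 565 and 187 to 402 FPKM, with a median of 0.22. The CA1 list had 2 members higher against naive 1 to 4 alone, the interneuron list 3 higher and 1 lower and each of the other 8 lists here at most 1 in each direction. Over all genes 11.9% rose and 11.8% fell in that comparison. Against 5 to 9 alone 0 members of these lists were called. The medians against naive 1 to 4 and 5 to 9 were 0.54 and 0.10 for choroid plexus, 0.41 and 0.07 for blood, -0.18 and 0.16 for dentate granule cell and 0.30 and 0.17 for CA1 markers. The part of these cells in the called genes was not tested.

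Threat training at the same time gave levels that limma did not separate from place training. Between 6 threat 24 h and 5 place 24 h libraries 0 of 13153 genes were called (0%), although 381 had an unadjusted p under 0.05, and each alternative also gave 0. Leng8 was at 9.99 ± 0.64 FPKM after threat (SD, n = 6) and 10.8 ± 0.815 after place (n = 5), a difference of -0.10 ± 0.18 log2 (SE, adjusted p = 1.00). Snhg11 was at 27.6 ± 1.58 and 31.6 ± 2.17 FPKM, a difference of -0.19 ± 0.17, and Mmp9 at 1.43 ± 0.44 and 1.46 ± 0.19. The lowest p-values belonged to Zbtb8os-ps1 (-0.29 ± 0.07 in threat), Hcls1 (-0.33 ± 0.08), the phosphatase Dusp12 (0.23 ± 0.06), the co-chaperone Bag3 (-0.31 ± 0.09) and Fam82b (-0.17 ± 0.05), each with an adjusted p of 1.00. Hcls1, a cytoskeletal protein of blood-derived cells, was at 2.29 to 2.73 FPKM in place 24 h and 1.54 to 2.08 in threat 24 h libraries. Sgk1 was at 19.7 ± 4.73 FPKM in threat 24 h and 30.0 ± 7.33 in place 24 h, a difference of -0.58 ± 0.20 that did not pass. Threat and place at 24 h share the naive libraries as controls, so their differences from naive are not independent, and they were -1.11 and -1.02 for Leng8, -1.11 and -0.92 for Snhg11 and 0.01 and 0.59 for Sgk1.

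Between 6 place 1 h and the 5 place 24 h libraries, 869 genes rose (6.61%) and 874 fell (6.64%) from 1 h to 24 h. The 2 groups hold no naive library, but the 5 place 24 h libraries are those compared with naive above. Leaving out 1 library gave 1125 to 2086 genes, with 1125 without place 24 h library 5. Snhg11, Znhit6, Set, Ddrgk1 and RGD1311703 had the lowest p-values. Snhg11 stood at 51.9 to 84.3 FPKM at 1 h and 28.5 to 33.3 at 24 h, without overlap, and fell by 1.12 ± 0.17 log2 (adjusted p = 0.000547). A row listed as Set, a histone chaperone, rose from 54.5 ± 1.66 to 69.2 ± 3.36 FPKM (SD, n = 6 and 5, with 0.34 ± 0.05 log2). This row spans 1.52 kb, and reads from copies of the gene may be shared. Znhit6, a snoRNP assembly factor, rose by 0.44 ± 0.06, and Ddrgk1, an adaptor for ufmylation, by 0.32 ± 0.05. RGD1311703 rose by 0.33 ± 0.05. The other 8 of the 9 genes lower against each naive set were also lower at 24 h than at 1 h, Leng8 by 1.13 ± 0.18 from 24.9 ± 3.07 FPKM, and the others by 0.54 (Atxn2l) to 0.89 (Idua). These genes were chosen for low values in the same 5 place 24 h libraries, so this is no separate support. At 1 h these 9 genes differed from the 9 naive libraries by 0.00 (Clasrp) to 0.20 (Snhg11), and none of those differences was called. Mmp9 stood at 0.322 to 1.04 FPKM at 1 h, below its 1.27 to 1.69 at 24 h (0.55 ± 0.11 log2, adjusted p = 0.00226).

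Methylated DNA captured at 24 h gave no called gene between place and naive CA1. Capture used a methyl-binding domain protein, and the deposited RPKM of 500-nt bins was averaged over each gene's span. Among 7030 genes with a mean of at least 0.3 RPKM, limma called 0 between 4 place and 3 naive captured libraries (0%), although 287 had an unadjusted p under 0.05, and each alternative also gave 0. The test covered 302 of the 468 genes with lower mRNA and 58 of the 196 with higher mRNA, and not Leng8 or Akap8l, whose spans were under that level. Over all members with bins, tested or not, median RPKM over the span was 0.340 in naive and 0.344 in place libraries for lower genes and 0.231 in both for higher genes, against 0.312 in both for all genes and 0.295 to 0.296 in input that was not captured. Within 1000 nt of the gene start the medians were 0.115 and 0.117 for lower and 0.0860 and 0.0864 for higher genes, against 0.115 and 0.116 for all genes and input medians of 0.264 to 0.272.

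The start values reach 1000 nt to each side of the deposited gene start. They were not matched to the GRCr8 stretches given above and are not values of those stretches. At these starts Leng8 had 0.0431 ± 0.0347 RPKM in naive (SD, n = 3) and 0.0556 ± 0.0080 in place libraries (n = 4), against 0.374 ± 0.038 in input (n = 3). Snhg11 had 0.170 ± 0.037 and 0.235 ± 0.090, against 0.279 in input, and Idua 0.126 ± 0.039 and 0.158 ± 0.051, against 0.272. The start values of the 2 groups, which were not tested, differed by less than the summed SDs in these 3 genes. Of the 9 genes lower against each naive set only Srrm2 differed by more, with 0.129 ± 0.031 in naive and 0.0646 ± 0.0137 in place libraries. Over the whole span Snhg11 differed by 0.11 ± 0.05 log2(RPKM + 0.25) (limma adjusted p = 1.00; unadjusted 0.0670), Idua by 0.01 ± 0.06, Celsr3 by -0.03 ± 0.06 and Col19a1 by 0.02 ± 0.02. The Col19a1 start had 0.457 ± 0.025 and 0.410 ± 0.082 RPKM, above its input of 0.264. Whether the RNA and DNA came from the same animals is not stated in the labels.

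The higher and lower genes differed in level, length and surroundings. The median naive level was 24.9 FPKM for higher genes, 6.97 for lower genes and 7.74 for all genes tested. The median gene span was 10.1 kb for higher, 18.5 kb for lower and 18.9 kb for all genes tested. A median of 7 other genes lay within 100 kb of a lower gene, compared with 4 around a higher gene and 4 around any tested gene. These are descriptions with no test. A check of base composition before gene starts is void, because a RefSeq promoter was matched for only 75.2% of the genes tested, against 82.1% of higher and 82.5% of lower genes.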

How the data were processed

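The authors deposited RNA values as FPKM per gene and MBD values as RPKM, a coverage value per 500-nt bin; TopHat 1.4.0 and Bowtie, the packages edgeR and DESeq2, and builds rn5 and mm10 appear without roles in the submitters' processing notes. The RNA table is titled for a mouse build, but its gene identifiers are those of rat, and its positions were taken as rn5, the rat build named. Whether counting used strand is not given in the sources used here, so overlapping and antisense genes are uncertain, and the library scaling came with the authors' FPKM.

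Genes with 1 FPKM in at least 5 libraries were tested by limma 3.58.1 (R 4.3.3) with trend on log2(FPKM + 1) over 34 libraries and 5 group means. The pseudocount shrinks differences of low genes. Values after ± are SE for log2 differences and SD for levels. MBD spans were fitted as log2(RPKM + 0.25) over 10 captured libraries at 24 h, from 5805202 bins. Calls needed a p under 0.05 after Benjamini-Hochberg adjustment over every gene tested. The scripts were tested on simulated data.

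The comparison, its members and the 42 gene lists were chosen with earlier results of these data known. Of 1200 list entries 1163 were found in the table, 23 by synonym or identifier, and of several rows with 1 symbol (53 entries) the row with the highest mean was kept. Genes were named as the 15 largest differences in each direction, those called against both naive sets, the members of lowest p in each list (at most 4), and the 5 lowest p against threat 24 h and place 1 h. Other called members of a list were named after their values were seen. The alternatives were pseudocounts of 0.1 and 0.5, no filter and a filter of 5 FPKM, 2 scalings, only the compared groups, a replicate block, array weights, robust moderation, each naive set, and leaving out each library.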

Additional observations from a re-analysis of the deposited data

Results flagged for a closer look

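Single libraries stood apart from the rest of their group in 7 of 154 tests of a group's highest or lowest value (Dixon's test at 95%), where chance flags about 1 in 20 groups. Tnnt2 was at 1.95 FPKM in naive library 6, with the next naive library at 0.978. Ache was at 9.52 FPKM in naive library 4, with the next at 14.5, and Col6a1 was at 15.05 FPKM in the same library, with the next at 7.07. Place 24 h library 1 was low in 3 genes, Ndufa1 at 90.5 FPKM (next 105), Mrps18c at 13.2 (next 16.1) and Mrps33 at 29.7 (next 34.1). Mapk11 was at 9.43 FPKM in place 24 h library 4, with the next at 7.23.

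Levels after place training differed between 24 h and 1 h in 1743 genes by limma, with 869 higher and 874 lower at 24 h. The naive RNA libraries carry no time, so this is a difference between these libraries, and whether an effect of training differed with time was not tested.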

How the results depend on the processing

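Called against naive, 664 genes became 0 with only the 2 groups in the fit, 1668 with array weights, 3120 against naive 1 to 4, 11 against naive 5 to 9, 1548 with both naive sets weighted equally and 1238 with these sets and place 24 h alone in the fit, an alternative chosen after seeing the data. Leaving out 1 library gave 235 to 1121. Against place 1 h, 1743 genes became 4129 with array weights, and 1125 to 2086 without 1 library. The causes were not tested. With a replicate block the 664 became 1133; the numbers did not pair the libraries, since same-numbered deviations correlated from -0.06 to 0.39 and only place 24 h library 4 correlated best with its own number. The counts of 0 for threat 24 h against place 24 h and for MBD gene spans stayed 0 under every alternative run. Of 5418 values of 195 named genes under alternatives, 4691 stayed on their side of the threshold, 475 lost the call and 252 gained one. The sign changed in 0 values of called genes and in 8 of genes that were not called, 4 of them against naive 5 to 9. Depth in reads is unknown, so no counting error could be given.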
